A study of Mus musculus with 2 samples.

Results

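This account concerns 8 of the 33696 genes in the count tables of a mouse hippocampus study: Zfp804b, Osbpl3, Luzp2, Kcnh5, Col5a2, Fstl5, Inpp4b and Ablim1. They were taken by symbol, because an earlier reading of the same counts had their levels moving one way in dentate granule nuclei and the other way in CA3 or CA1 pyramidal nuclei. The values that follow for these 3 classes are therefore the ones that chose the genes, and they are given as a description. Rebuilt here, the opposite movement was present against at least 1 pyramidal class for 7 of the 8 genes. Fstl5 was the exception, with higher levels in all 3 classes of the library labelled knockout.

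Nuclei were isolated from frozen hippocampus at postnatal day 19 and sequenced as 2 droplet libraries with 3′ capture. The control library pooled 1 hippocampus from each of 3 Cicflox/flox mice, and the library labelled knockout pooled 1 from each of 3 Emx1-Cre; Cicflox/flox littermates. Each pool held 2 males and 1 female, and both carried the floxed Cic allele, so by genotype the Cre is the difference between them. The mice and the library differ along with the Cre, so their parts cannot be told apart. Cic encodes Capicua, a DNA-binding repressor that acts downstream of receptor tyrosine kinase signalling, and the study's title places it in the targeting of mossy fibres, the axons of granule cells, to CA3. Emx1-Cre is active in the dorsal telencephalic lineage, which gives rise to the excitatory neurons, astrocytes and much of the oligodendrocyte lineage of the hippocampus, but not to most inhibitory neurons or to microglia. With 1 library a group, no test of the genotype is possible. Every interval here is a 95% interval for counting error alone and does not hold the spread between mice. Reads carried molecular identifiers (UMIs), and levels are UMIs summed over the nuclei of a class, per 1000000 UMIs of that class (CPM). Ratios are log2 of the level in the library labelled knockout over that in the control, with 0.5 UMI added to each sum.

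Granule cells of the dentate gyrus are the first relay of the hippocampal circuit. Their mossy fibres contact CA3 pyramidal cells, which in turn project to CA1 pyramidal cells. Granule and pyramidal neurons share the glutamatergic programme and differ in position, birth date and wiring. The 8 genes encode proteins of different kinds, and a shared pathway was not looked for. Col5a2 encodes a chain of the fibrillar collagen V and Fstl5 a secreted follistatin-like protein. Kcnh5 encodes a voltage-gated potassium channel of the ether-à-go-go family. Osbpl3 encodes a lipid-transfer protein that works where the endoplasmic reticulum touches other membranes, and Inpp4b a phosphatase that removes the 4-phosphate of phosphoinositides. Ablim1 encodes an actin-binding LIM protein and Zfp804b a zinc finger protein. Luzp2 encodes a leucine zipper protein.

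A table of RefSeq promoters on the GRCm38.p6 build held 7 of the 8 genes, all but Col5a2, with 12 annotated starts. Osbpl3 and Luzp2 are shown because they had the widest gaps between granule and CA1 ratios in each direction. Each line gives the 250 bases before the first start, 5′ to 3′ on the gene's strand, with every GGAA core of ETS factors, on either strand, in capitals.
Osbpl3, chr6:50456171-50456420, minus strand: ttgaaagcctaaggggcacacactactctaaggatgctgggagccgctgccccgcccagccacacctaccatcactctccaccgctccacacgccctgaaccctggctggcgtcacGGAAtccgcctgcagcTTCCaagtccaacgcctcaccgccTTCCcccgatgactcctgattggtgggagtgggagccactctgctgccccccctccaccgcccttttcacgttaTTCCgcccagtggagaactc
Luzp2, chr7:54834995-54835244, plus strand: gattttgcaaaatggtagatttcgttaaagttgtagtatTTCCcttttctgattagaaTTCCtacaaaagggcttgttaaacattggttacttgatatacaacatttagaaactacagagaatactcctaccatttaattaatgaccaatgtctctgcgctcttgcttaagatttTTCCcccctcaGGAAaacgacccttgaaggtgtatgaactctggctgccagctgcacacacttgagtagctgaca
The Osbpl3 stretch was 62.8% G and C and that of Luzp2 38.4%, against a median of 54.8% over all starts. Both held 4 GGAA cores, a sequence found in 93.4% of the 24204 starts in the table. The Capicua octamers TGAATGAA, TGAATGGA, TCAATGAA and TCAATGGA were searched on both strands and were found before none of the 12 starts, against 2.86% of all starts. The longer ETS octamers CCGGAAGT and CCGGAAGC, which contain the core, were likewise found before none of the 12, against 6.11% of all starts. Such a search says only that these letters are not in these 250 bases.

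The genes lie on 8 different chromosomes: 1 (Col5a2), 3 (Fstl5), 5 (Zfp804b), 6 (Osbpl3), 7 (Luzp2), 8 (Inpp4b), 12 (Kcnh5) and 19 (Ablim1). They share great length. Their annotated spans on GRCm38 ran from 129 kb (Col5a2) to 785 kb (Inpp4b), with a median of 358 kb, against a median of 39.4 kb for the genes tested in granule nuclei. Zfp804b, Inpp4b and Ablim1 each overlap an annotated gene on the opposite strand (Tex47, 4930579O11Rik and 4930449E18Rik). Whether the counting used strand is not given in the sources used here, so reads of these 3 genes and their partners may not be fully separated.

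The control table held 25907 barcodes and the other 23207, of which 175 barcodes were the same in both (0.675% and 0.754%). After filters and removal of predicted doublets 21837 and 20529 nuclei were used, at median depths of 9783 and 8765 UMIs. Clusters built without the 8 genes were named by fixed marker sets, and 15 classes had at least 100 nuclei in each library. The 3 classes compared here were dentate granule-like (4768 control nuclei and 3820 of the library labelled knockout), CA3-like (1238 and 1157) and CA1-like (2692 and 2397). The granule class was split by library: cluster 0 held 669 and 3158 nuclei, cluster 2 held 3631 and 73, and cluster 13 held 468 and 589. This split remained when the 8 genes were put into the clustering (4113 and 138 nuclei, and 179 and 3095). It also remained at a lower resolution (4106 and 133, and 668 and 3692) and with predicted doublets kept (4118 and 114, and 218 and 3226). It was lost only when genes picked for differing between the libraries were left out, which itself takes away differences between them. When genes at least 2-fold apart in the granule, CA3 or CA1 class were left out of the clustering, granule nuclei formed 2 clusters that both libraries shared, one of 2841 and 1738 nuclei, here called mixed cluster A, and one of 1772 and 1956, mixed cluster B. Ratios within clusters 0 and 2, and granule ratios weighted to the control's mix of them, therefore compare nuclei already parted by library, with 73 nuclei on one side of cluster 2. Values in the mixed clusters are given beside them, a choice made after seeing the data. All 8 genes had the sign of the class in both mixed clusters. The same clustering gave the CA1 class a further cluster (277 and 483 nuclei) in which Inpp4b (−0.17), Luzp2 (0.55), Col5a2 (1.10) and Kcnh5 (−0.33, interval holding 0) had the sign opposite to that of their CA1 class value. That cluster had 3 of 8 CA1 markers raised, and Cpa6, Esr2 and Pparg were among its leading genes. The same genes were among those leading a cluster of 179 and 349 nuclei left unnamed in the main clustering. The further cluster may thus hold nuclei that the main clustering did not call CA1, an overlap that was not counted. Cic itself showed no loss under the knockout label: its UMIs were 532 and 537 in granule-like nuclei (log2 ratio 0.48), 203 and 278 in CA3-like (0.74) and 361 and 507 in CA1-like nuclei (0.85). Where the deleted exons lie relative to the 3′ reads is not given in the sources used here, so this does not check the label.

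All 8 genes passed the minimum of 50 UMIs and 10 CPM in the higher library in each of the 3 classes. A difference of 2-fold or more was reached by 7 of them in granule-like nuclei, 3 higher and 4 lower under the knockout label. The background there was 3.11% of the 8447 genes tested, with 2.08% higher and 1.03% lower. CA3-like nuclei had 1 higher and 2 lower (background 1.62% of 8190 genes, 1.25% higher and 0.379% lower). CA1-like nuclei had 3 higher and 2 lower (background 3.35% of 8351 genes, 2.73% higher and 0.623% lower). Signs were opposite, with both intervals clear of 0, for 5 genes against CA3 (background 7.1% of 7634 genes) and 6 against CA1 (10.7% of 7776). Only 2 genes were at least 2-fold apart in both granule and CA3 nuclei in opposite directions, Osbpl3 and Kcnh5, which is 0.0262% of those tested. Against CA1 there were 4, which is 0.0514%: Osbpl3, Col5a2, Inpp4b and Ablim1. The median absolute log2 ratio of the 8 genes was 1.45 in the granule class, 0.50 in CA3 and 1.48 in CA1, against 0.13, 0.14 and 0.17 over all genes tested. The genes were chosen on these ratios, so nothing is read from the distance to the background.

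**Figure D1:**
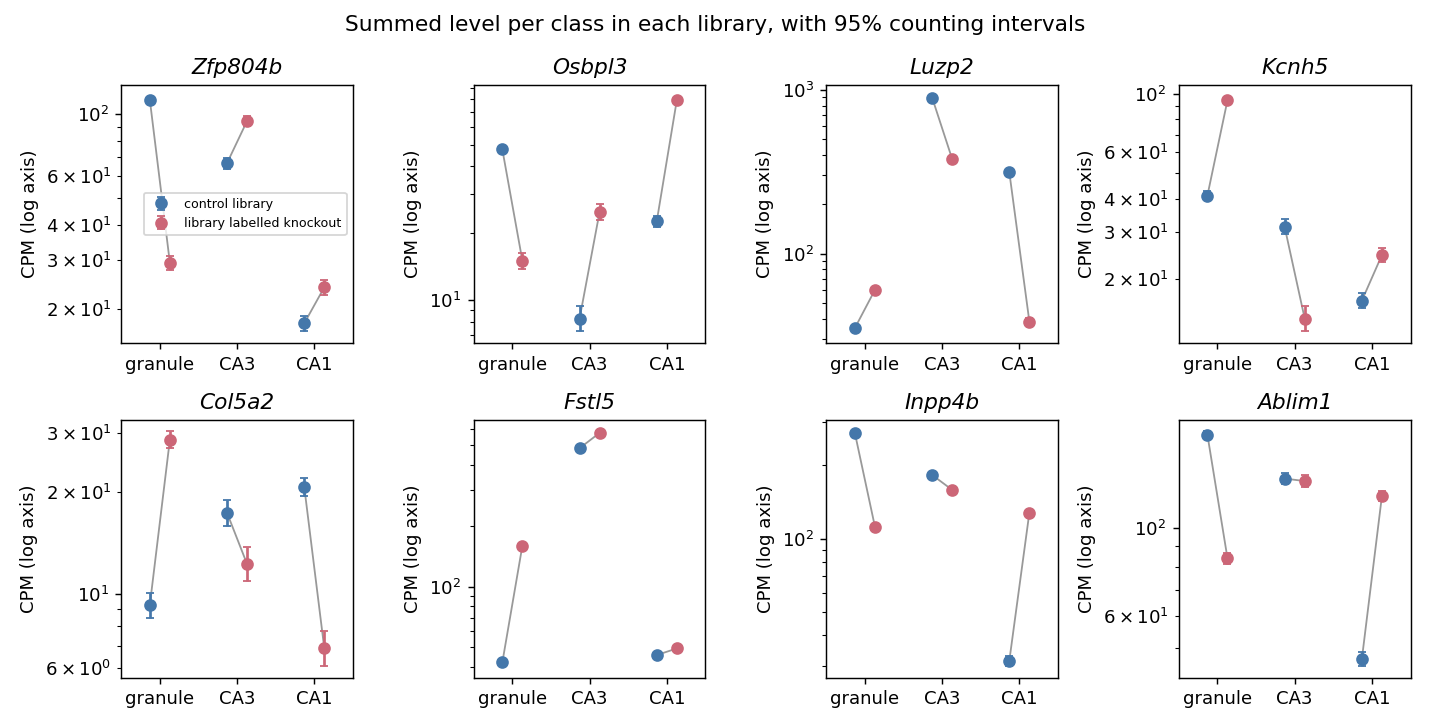
Level of each gene (CPM, log axis) in the granule, CA3 and CA1 classes, with the control library in blue and the library labelled knockout in red, with 95% counting intervals. Grey lines join both libraries within a class: for Osbpl3 the granule line goes down and both pyramidal lines go up, for Luzp2 the reverse, and for Fstl5 all 3 go up.

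Osbpl3 was the 1 gene at least 2-fold apart in all 3 classes. Granule-like nuclei of the control held 2761 UMIs, against 630 under the knockout label, or 47.6 and 15.0 CPM, which is a log2 ratio of −1.66 (−1.79 to −1.54). The CA3 level went from 8.26 to 25.0 CPM, a ratio of 1.59 (1.38 to 1.82). CA1-like nuclei went from 22.7 to 79.5 CPM, a ratio of 1.81 (1.71 to 1.91). The rank of the classes was thereby exchanged: the control had Osbpl3 higher in granule than in CA1 nuclei by 1.07 on the log2 scale, and the library labelled knockout had it lower by −2.40. All 7 clusters of the 3 classes kept the direction of their class, at −1.75, −0.93 and −1.54 in granule clusters 0, 2 and 13, 1.91 and 0.51 in CA3 clusters 9 and 19, and 1.90 and 1.93 in CA1 clusters 3 and 6. With clusters weighted as in the control the granule ratio was −1.10, against −1.62 with the mixed clusters weighted in the same way (−1.42 in A and −2.02 in B). The share of nuclei with at least 1 Osbpl3 UMI went from 38.2% to 12.9% in granule-like and from 26.6% to 55.7% in CA1-like nuclei. Microglia-like nuclei, taken as a background, had 4.77% and 4.61% at far lower depth (medians of 2152 and 1719 UMIs against 11640 and 10519 in granule-like nuclei). At 2000 UMIs per nucleus the granule shares were 9.23% and 3.09% and the CA1 shares 4.53% and 13.8%, with microglia at 4.01% and 6.01%. Thinning takes away more of the free RNA of a deep nucleus than of a shallow one. The microglial shares at 2000 UMIs are therefore not a like background, and closeness to them is not read as free RNA. With free RNA, taken from microglia-like nuclei, subtracted, the granule ratio was −2.08. Thinning left out 664 and 959 microglia-like nuclei as too shallow, but at most 5 per library in each of the granule, CA3 and CA1 classes.

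Inpp4b was lower in granule and higher in CA1 nuclei. The granule level went from 271 CPM to 112 CPM in the library labelled knockout, from 15729 and 4690 UMIs, a ratio of −1.28 (−1.33 to −1.23). CA1-like nuclei moved the other way, from 31.5 to 128 CPM (1685 and 5317 UMIs), a ratio of 2.02 (1.94 to 2.10). CA3-like nuclei had 183 and 158 CPM, a ratio of −0.20 (−0.26 to −0.14), the same direction as granule nuclei. Both mixed clusters were lower, at 356 and 177 CPM in A (−1.01, −1.06 to −0.96) and 120 and 41.8 CPM in B (−1.52, −1.64 to −1.41), and −1.06 when weighted as in the control. In the clustering that parted by library the signs differed: cluster 0 was higher in the library labelled knockout, at 60.3 and 125 CPM, a ratio of 1.04 (0.90 to 1.19). Cluster 2, which held most control nuclei, had 332 and 217 CPM, a ratio of −0.61, and cluster 13 had 11.3 and 10.8 CPM, a ratio of −0.06 whose interval holds 0. Weighting these 3 clusters as in the control gave −0.53. Both CA1 clusters were higher, by 2.37 in cluster 3 and 1.65 in cluster 6. The CA1 ratio was 1.18 when genes past 2-fold were left out of the clustering (0.90 with those clusters weighted as in the control, under 2-fold) and 1.26 with the unnamed clusters closest to CA1 added. At least 1 Inpp4b UMI was found in 63.3% and 38.6% of granule-like nuclei and in 19.8% and 39.2% of CA1-like nuclei, against 2.51% and 3.07% of oligodendrocyte-like nuclei at median depths of 7930 and 8299 UMIs. The 2000-UMI shares were 32.5% and 15.5% in granule-like and 4.53% and 15.1% in CA1-like nuclei, with 1.36% and 0.93% in oligodendrocyte-like nuclei.

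Ablim1 followed the same outline with a smaller range. It went from 172 to 84.1 CPM in granule-like nuclei, from 9976 and 3526 UMIs, a ratio of −1.03 (−1.09 to −0.98). In CA1-like nuclei 46.8 and 121 CPM gave 1.37 (1.30 to 1.44). CA3-like nuclei had 133 and 132 CPM, a ratio of −0.02 (−0.09 to 0.05), so the opposite movement was against CA1 alone. Granule clusters 0, 2 and 13 had −0.93, −0.99 and −0.33 (−0.94 when weighted as in the control, just under 2-fold). Mixed clusters A and B had −1.13 and −0.90, and −1.06 when weighted. CA1 clusters 3 and 6 had 2.40 and 0.79. With the unnamed clusters closest to CA1 added, the CA1 ratio was 0.999, which also falls just under 2-fold. The CA1 levels differed between those clusters in the control, at 15.7 CPM in cluster 3 and 95 CPM in cluster 6, and came closer in the library labelled knockout, at 82.5 and 164 CPM.

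Zfp804b had the lowest granule ratio of the set and small pyramidal ones. Granule-like nuclei held 6525 and 1226 UMIs, or 113 and 29.2 CPM, a ratio of −1.94 (−2.03 to −1.86). CA3-like nuclei went from 66.6 to 94.3 CPM, a ratio of 0.50 (0.42 to 0.59), and CA1-like nuclei from 17.7 to 23.9 CPM, a ratio of 0.43 (0.30 to 0.56). In mixed cluster A it went from 155 to 41.2 CPM (−1.91, −2.02 to −1.81) and in B from 34.1 to 16.1 CPM (−1.08, −1.28 to −0.88), which gave −1.80 when weighted as in the control. In the clustering that parted by library, where the control had 134 CPM in cluster 2 and 34.6 CPM in cluster 0, the ratios within them were −1.16 (−1.61 to −0.77, on 49 UMIs of the library labelled knockout) and −0.21 (−0.41 to −0.002), and cluster 13 had −0.30 with an interval that holds 0. Weighting these as in the control gave −1.11. In CA3 the difference lay in cluster 9 (1.13), where the control level was 21.2 CPM, while cluster 19, at 239 CPM, had 0.12. CA1 cluster 6 held nearly all of the CA1 UMIs, with a ratio of 0.24. The CA1 value was unsteady: it was 1.59 when genes past 2-fold were left out of the clustering, 1.02 with those clusters weighted as in the control, 0.05 with predicted doublets kept, and −0.45 when the unnamed clusters closest to CA1 were added. In the clustering without genes past 2-fold, the rise lay in the further CA1 cluster (277 and 483 nuclei). As said above, this cluster may hold nuclei left unnamed in the main clustering. Zfp804b UMIs there went from 195 to 2102, a ratio of 2.74 (2.53 to 2.96). The other CA1 clusters had −0.35 and 0.03, with intervals that hold 0.

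Luzp2 was the mirror image, higher in granule and lower in both pyramidal classes. Granule-like nuclei had 2035 and 2518 UMIs, or 35.1 and 60.02 CPM, a ratio of 0.77 (0.69 to 0.86). CA3-like nuclei went from 897 to 378 CPM, from 26398 and 9117 UMIs, a ratio of −1.25 (−1.28 to −1.21). CA1-like nuclei went from 314 to 38.4 CPM, from 16809 and 1595 UMIs, a ratio of −3.03 (−3.11 to −2.96), which is 8.18-fold lower. Granule nuclei had been lower than CA1 nuclei by −3.16 on the log2 scale in the control and were higher by 0.65 in the library labelled knockout. CA1 cluster 3, which had 462 CPM in the control, had 36.8 CPM in the other library (ratio −3.65), a level close to the 40.2 CPM of cluster 6, where the control had 85.7 CPM (ratio −1.09). The CA1 ratio was −2.33 with predicted doublets kept and −2.18 with the unnamed clusters closest to CA1 added. Both CA3 clusters were lower, at −1.20 and −1.61. The granule clusters were divided, with 0.79 in cluster 0, 0.74 in cluster 2 and −0.43 (−0.58 to −0.29) in cluster 13, whose control level was 169 CPM. Weighted as in the control, the granule ratio was 0.35. Mixed cluster A had 1.40 (1.28 to 1.52) and B 0.32 (0.17 to 0.47), and weighting them gave 1.05, past 2-fold. With free RNA subtracted the class ratio was 1.30, also past 2-fold. The share of CA1-like nuclei with a Luzp2 UMI went from 61.7% to 22.8%, and at 2000 UMIs from 33.3% to 5.42%, where microglia-like nuclei had 7.20% and 6.01%. The granule shares at 2000 UMIs were 5.94% and 9.62%, and only the second exceeded the microglial shares. As said for Osbpl3, those shares are not a like background for deeper nuclei. Microglia-like nuclei, a class outside the Emx1 lineage, themselves held 251 and 102 Luzp2 UMIs, or 73.8 and 38.4 CPM, a ratio of −0.94 (−1.29 to −0.61), in the direction of the pyramidal classes. It was −1.03 (−1.69 to −0.41) in female and −1.04 (−1.78 to −0.38) in male microglia-like nuclei.

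Col5a2 likewise was higher in granule and lower in pyramidal nuclei. Its granule level went from 9.24 to 28.6 CPM, from 536 and 1201 UMIs, a ratio of 1.63 (1.48 to 1.78). CA1-like nuclei went from 20.7 to 6.88 CPM, from 1111 and 286 UMIs, a ratio of −1.59 (−1.79 to −1.40), and CA3-like nuclei from 17.4 to 12.2 CPM, a ratio of −0.50 (−0.72 to −0.30). All 7 clusters kept the direction of their class, with 1.47, 1.71 and 1.14 in the granule clusters (1.74 in mixed cluster A and 1.25 to 1.77, by its interval, in B), −1.29 and −0.45 in the CA3 clusters and −0.95 and −2.03 in the CA1 clusters. Nuclei with a Col5a2 UMI made up 8.31% and 22.0% of granule-like and 11.1% and 6.63% of CA1-like nuclei, against 0.40% and 0.41% of microglia-like nuclei. Its pyramidal values were sensitive to the analysis. Thinning every nucleus to 2000 UMIs turned the CA3 ratio to 0.61 (0.00 to 1.25), and building the clusters with the 8 genes included made the CA1 ratio −0.97.

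Kcnh5 was opposite against CA3 only. Granule-like nuclei went from 41.3 to 94.3 CPM, from 2393 and 3957 UMIs, a ratio of 1.19 (1.12 to 1.27). CA3-like nuclei went from 31.4 to 14.2 CPM, from 925 and 342 UMIs, a ratio of −1.15 (−1.33 to −0.97). CA1-like nuclei moved with the granule nuclei, from 16.6 to 24.6 CPM, a ratio of 0.57 (0.44 to 0.70). Every cluster kept its class's direction: 1.29, 0.89 and 1.14 in granule, −1.22 and −0.57 in CA3, and 0.51 and 1.14 in CA1. The granule ratio fell just short of 2-fold with clusters weighted as in the control (0.96) but was 1.20 in each of mixed clusters A and B, and the CA3 ratio did with nuclei thinned to 2000 UMIs (−0.77). Granule over CA3, Kcnh5 RNA was 0.39 on the log2 scale in control nuclei and 2.73 under the knockout label, a change of 2.34. The same contrast changed more for Osbpl3 (−3.26) and Zfp804b (−2.45). A Kcnh5 UMI was found in 30.1% and 51.7% of granule-like nuclei and in 36.8% and 20.1% of CA3-like nuclei, against 0.73% and 0.81% of microglia-like nuclei.

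Fstl5 did not move oppositely as a class sum. Its granule level went from 42.2 to 159 CPM, from 2445 and 6685 UMIs, a ratio of 1.92 (1.85 to 1.99), and all 3 granule clusters were higher, by 1.32, 1.91 and 0.87, as were mixed clusters A and B, by 2.25 and 1.56. CA3-like nuclei, with 482 and 574 CPM, had 0.25 (0.22 to 0.29). CA1-like nuclei had 45.9 and 49.4 CPM, a ratio of 0.11 (0.02 to 0.19). Inside the CA1 class cluster 3 was lower, with 391 and 106 UMIs and a ratio of −1.32 (−1.65 to −1.02), while cluster 6, which held most of the Fstl5 UMIs, had 0.03 with an interval that holds 0. The CA1 class ratio was −0.12 with clusters weighted as in the control. Other scalings lowered all CA1 ratios by 0.12, which took Fstl5 to −0.01. The other 7 genes kept their CA1 sign relative to that shift, with Zfp804b at 0.31 and Kcnh5 at 0.45 after TMM scaling. Under TMM scaling 71.2% of the genes 2-fold apart in CA1-like nuclei were higher in the library labelled knockout, against 81.4% without it.

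**Figure D2:**
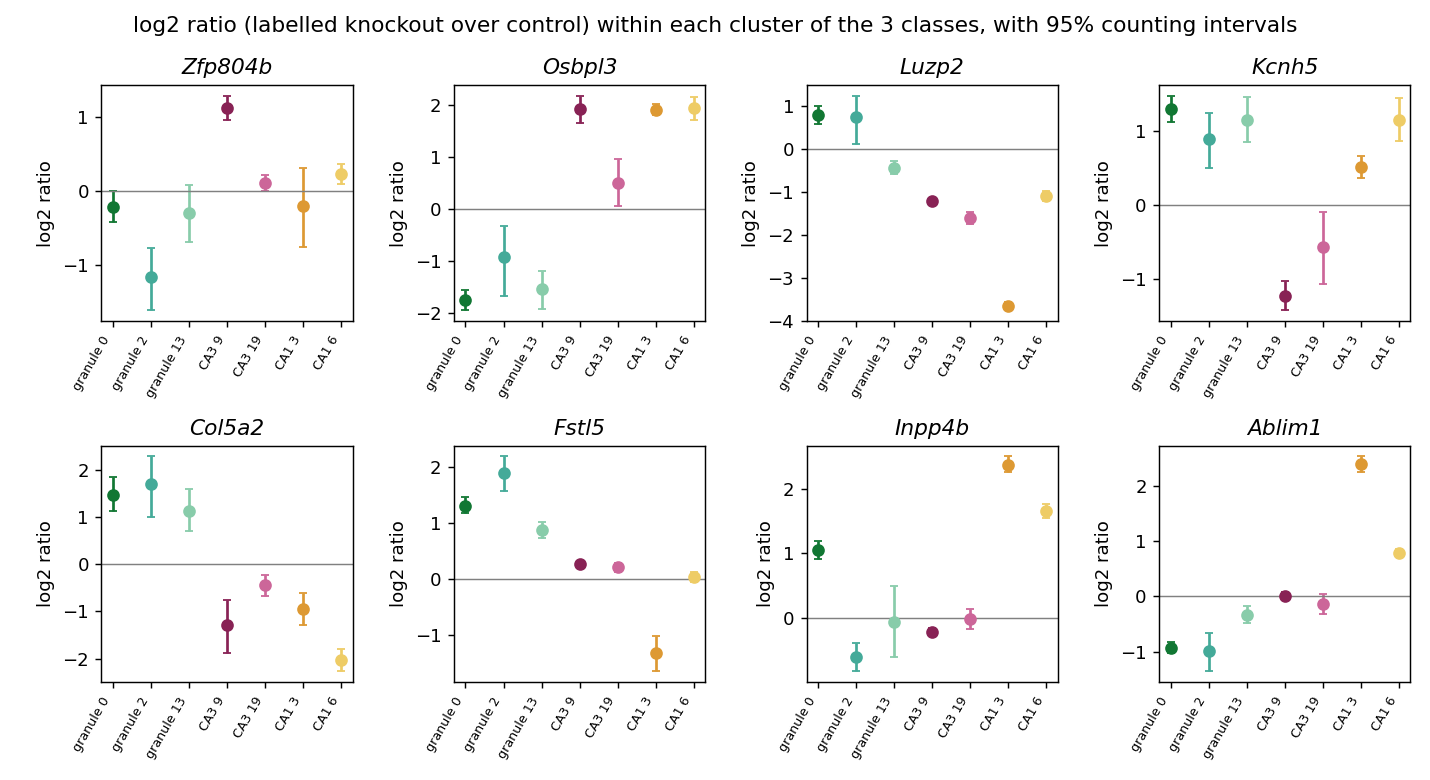
log2 ratio of each gene within granule clusters 0, 2 and 13, CA3 clusters 9 and 19 and CA1 clusters 3 and 6, with 95% counting intervals and a line at 0. Osbpl3, Kcnh5 and Col5a2 keep 1 sign per class, whereas Inpp4b is above 0 in granule cluster 0 and below it in cluster 2, which part by library, and Fstl5 is below 0 in CA1 cluster 3 alone.

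Marker sums also differed between the libraries. Sums of immature granule markers were higher, and those of each class's own markers lower, in all 3 classes. In granule-like nuclei the 8 immature granule markers summed to 145 CPM in control and 209 CPM in knockout-labelled nuclei, with 8 of 8 higher, and the 10 mature granule markers to 5225 and 4021 CPM, with 3 of 10 higher. Among CA1-like nuclei the same immature markers summed to 65.9 and 124 CPM (8 of 8 higher), and the 8 CA1 markers to 1026 and 813 CPM (3 of 8 higher). CA3-like nuclei had 82.9 and 109 CPM of immature markers (6 of 8 higher) and 2783 and 2461 CPM of the 8 CA3 markers (1 of 8 higher). The 8 Cajal-Retzius markers, in sum, went from 8.74 to 46.8 CPM in granule-like (6 of 8 higher), from 11.8 to 26.7 CPM in CA3-like (8 of 8 higher) and from 10.8 to 33.5 CPM in CA1-like nuclei (7 of 8 higher). None of the markers in these sets was at 0 in these classes. Pyramidal markers in granule-like nuclei summed to 88.5 and 58.8 CPM for the CA1 set (2 of 8 higher) and 580 and 404 CPM for the CA3 set (3 of 8 higher). The part of maturity or of marker levels in the 8 genes' ratios was not tested. Fewer cells of a kind within a class and less RNA per cell cannot be told apart in these sums.

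Nuclei could be divided by the X- and Y-linked transcripts they held, which in each pool assigns female nuclei to 1 mouse and male nuclei to 2. All 8 granule ratios had the same sign in both sexes. Zfp804b was at −1.86 in female and −2.11 in male nuclei, Osbpl3 at −1.58 and −1.68, and Inpp4b at −1.25 and −1.27. Ablim1 had −0.98 and −1.06, Luzp2 0.79 and 0.85, and Fstl5 1.92 and 1.84. Kcnh5 (1.46 and 1.01) and Col5a2 (1.89 and 1.48) were higher in female nuclei, a difference that was not tested. In CA1-like nuclei 7 of the 8 genes kept their sign, with Luzp2 at −3.60 and −2.82 and Osbpl3 at 2.11 and 1.68, and Fstl5 differed, at −0.26 and 0.25. CA3-like nuclei kept the sign of 7, with Inpp4b at 0.06 (−0.05 to 0.16) in female and −0.21 in male nuclei. These are the nuclei whose values chose the genes, so the split by sex describes them further and adds no support.

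**Figure D3:**
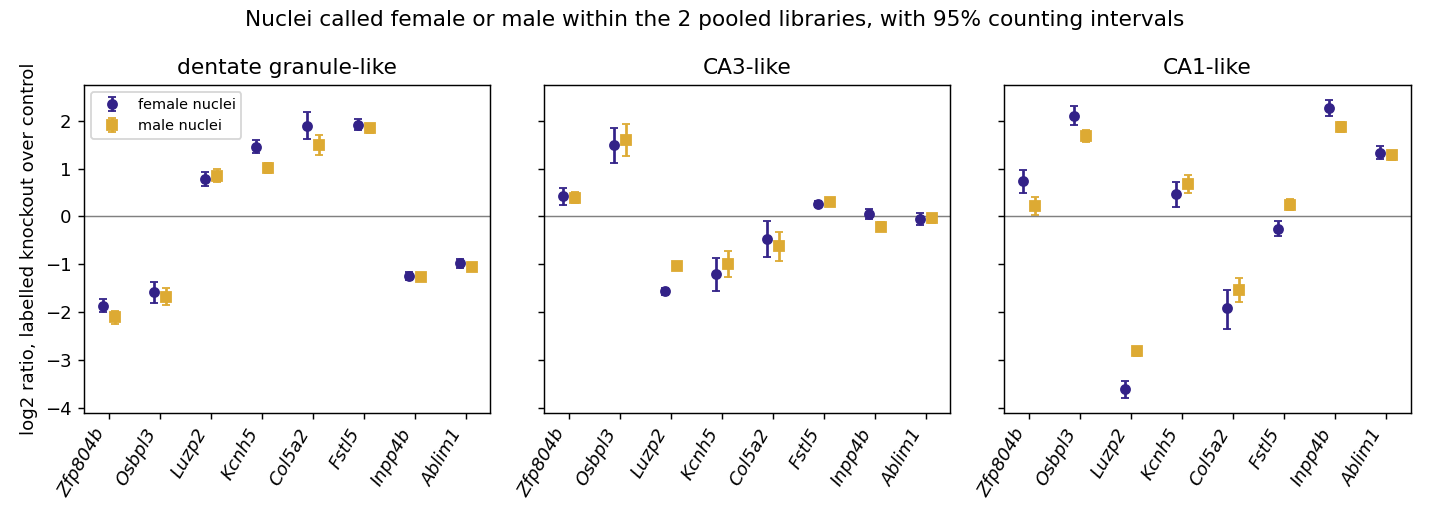
log2 ratio of each gene in nuclei called female (circles) or male (squares) in the 3 classes, with 95% counting intervals and a line at 0. Female and male points lie on the same side of 0 for all 8 genes in granule-like nuclei, and on different sides for Fstl5 in CA1-like and Inpp4b in CA3-like nuclei.

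In the 12 other classes 5 of the values were 2-fold apart: 2 in CA2-like nuclei and 1 each in oligodendrocyte-like, astrocyte-like and committed oligodendrocyte precursor-like nuclei. Immature dentate granule-like nuclei (2193 and 2397), the precursors of the granule class, had 6 of the 8 genes past the minimum and none at 2-fold (background 0.272%). Zfp804b was at −0.44, Luzp2 at −0.29, Fstl5 at 0.34, Inpp4b at 0.17, Ablim1 at −0.09 and Osbpl3 at 0.03. The sexes differed in sign for Osbpl3, at 0.75 (0.35 to 1.16) in female and −0.37 (−0.76 to 0.02) in male nuclei, for Zfp804b, at −0.48 (−1.16 to 0.17) and 0.53 (−0.41 to 1.49), and for Ablim1, at −0.14 (−0.37 to 0.08) and 0.01 (−0.21 to 0.22). The difference between the sexes was not tested. Their levels there were often far from those of mature nuclei. Luzp2 had 698 CPM in immature and 35.1 CPM in mature granule nuclei of the control, and Zfp804b 11.03 and 113 CPM. Inhibitory-like nuclei (1236 and 1265), mostly outside the Emx1 lineage, had all 8 past the minimum, none at 2-fold (background 0.102%) and a median absolute ratio of 0.09, the same as over all genes tested there. Among the 15 classes Zfp804b was highest in those nuclei, at 1229 and 984 CPM (−0.32). Most of that difference lay in female nuclei, from 1 mouse in each pool, at 1447 and 798 CPM (−0.86, −0.91 to −0.81), against 1174 and 1127 CPM (−0.06, −0.10 to −0.02) in male nuclei. Inpp4b there had −0.56 in female and 0.01 in male nuclei. The difference between the sexes was not tested.

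CA2-like nuclei (155 and 134), the third pyramidal class, had the CA3 and CA1 sign for Zfp804b, Osbpl3 and Luzp2 and the CA1 sign for Inpp4b. Zfp804b had 44 and 112 UMIs, a ratio of 1.77 (1.27 to 2.32), and Osbpl3 had 330 and 644 UMIs, a ratio of 1.40 (1.21 to 1.60). Both were past 2-fold, against a background of 3.08%. Luzp2 went from 1020 to 512 CPM, a ratio of −0.995 (1.99-fold lower), and Inpp4b from 87.4 to 162 CPM, a ratio of 0.89. Kcnh5 (0.20) had an interval that holds 0, Fstl5 had 0.24 and Ablim1 −0.18, and Col5a2 had 3 UMIs in each library. Subicular or cortical excitatory-like nuclei (605 and 696) had none of the 8 at 2-fold (background 1.14%): Osbpl3 at 0.53 and Ablim1 at 0.52 were higher and Zfp804b at −0.74 and Inpp4b at −0.51 lower. The Zfp804b value there was −1.03 (−1.42 to −0.65) in female nuclei and 0.07 (−0.33 to 0.47) in male nuclei, a difference that was not tested. Hilar mossy-like nuclei numbered 72 and 110 and were too few for the comparison, with Luzp2 at −0.69 and Zfp804b at 0.61.

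The largest ratio of any of the 8 genes in any class was that of Col5a2 in oligodendrocyte-like nuclei. There it had 10 UMIs in 1116 control nuclei and 791 UMIs in 879 nuclei of the library labelled knockout, or 1.09 and 104 CPM, a ratio of 6.51 (5.69 to 7.64). Female nuclei gave 6.37 and male nuclei 7.17. The share with a Col5a2 UMI was 0.90% (0.43% to 1.64%) and 35.4% (32.2% to 38.6%). The background for 2-fold differences in that class was 3.33%. Committed oligodendrocyte precursor-like nuclei had 2 and 5 Col5a2 UMIs, or 0.48 and 1.34 CPM, with an upper bound of 3.14 CPM under the knockout label. Oligodendrocyte precursor-like nuclei had 8 and 3 UMIs, or 1.44 and 0.56 CPM, with an upper bound of 1.63 CPM, so both classes were far below the 104 CPM of the mature one. Astrocyte-like nuclei, with 140 and 52 UMIs, went the other way, at −1.09 (−1.59 to −0.63; background 0.233%). Kcnh5 was lower in astrocyte-like nuclei too, at −1.16 (−1.99 to −0.42) in female and −1.35 (−1.98 to −0.79) in male nuclei. With genes past 2-fold left out of the clustering it was −0.97 (−1.37 to −0.60) there, under 2-fold. Fstl5 was higher in committed oligodendrocyte precursor-like nuclei, with 30 and 65 UMIs and a ratio of 1.26 (0.63 to 1.95; background 1.42%). It was 0.53 (−0.44 to 1.56) in female and 1.55 (0.35 to 2.99) in male nuclei, a difference that was not tested. With genes past 2-fold left out of the clustering, the clusters of this class had 0.58 and 0.53, both with intervals that hold 0. Among the 15 classes, Luzp2 was highest in the control in oligodendrocyte precursor-like nuclei, at 2319 and 2125 CPM (−0.13), and in the library labelled knockout in committed oligodendrocyte precursor-like nuclei, at 2174 and 2667 CPM (0.29). Kcnh5 was highest in both libraries in oligodendrocyte precursor-like nuclei, at 205 and 192 CPM (−0.09, interval holding 0). By the control level Inpp4b was highest of the 15 classes in microglia-like nuclei, at 1046 and 1117 CPM (0.09), and Ablim1 in Cajal-Retzius-like nuclei, at 692 and 712 CPM (0.04, interval holding 0).

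**Figure D4:**
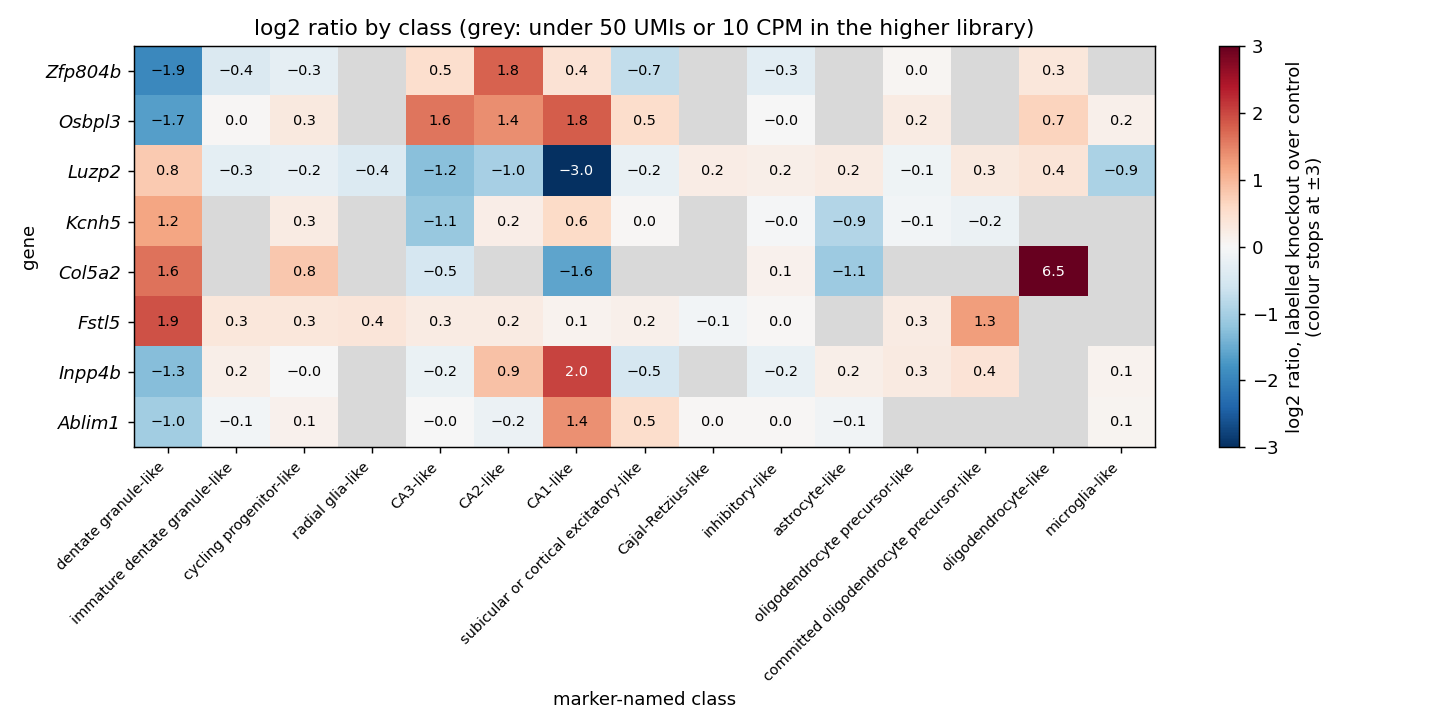
log2 ratio of the 8 genes (rows) in the 15 classes with at least 100 nuclei in each library (columns), red for higher and blue for lower in the library labelled knockout, with colour stopping at 3 on either side. The columns of granule-like and CA1-like nuclei hold the strongest colours, and the 6.5 of Col5a2 in oligodendrocyte-like nuclei stands alone in its column.

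Related genes were listed by family, as background to each member. With 3.11%, 1.62% and 3.35% of all tested genes 2-fold apart in the granule, CA3 and CA1 classes, lists this short would hold few such genes, so nothing is read from their counts. Of 13 other oxysterol-binding proteins and their partners, 12 were past the minimum in granule-like nuclei and 1 was 2-fold apart, Osbpl1a, at 1.43 (27.4 and 73.8 CPM), opposite to Osbpl3. None of 11 was in CA3-like or CA1-like nuclei. Among 13 other phosphoinositide phosphatases 9 or 10 were past the minimum and none was 2-fold apart in the 3 classes. The 3 other KCNH channels past it were within 2-fold in all 3 classes, with a median of −0.51 in granule-like nuclei against 1.19 for Kcnh5. Of 10 other fibrillar collagens only Col11a1 was past the minimum. It was at −1.66 in CA1-like nuclei (2268 and 556 UMIs), near the −1.59 of Col5a2, but at −0.72 in granule-like nuclei, where Col5a2 was higher. The follistatin-like and SPARC family had 7 of 11 others past the minimum. Fstl1 was at −1.28 in granule-like nuclei, opposite to Fstl5, and Fstl4 (1.00), Sparcl1 (1.42) and Smoc2 (1.43) were higher in CA1-like nuclei. Ablim3 was at 1.08 in CA1-like nuclei, in the direction of Ablim1, and none of the 3 other actin-binding LIM family genes was 2-fold apart in granule-like nuclei. Zfp804a and Luzp1 were within 2-fold in all 3 classes.

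For each gene the most similar profile over the 15 classes was sought by Pearson's r, as a description over classes that share 2 libraries. By control level (log2 CPM, among 16688 genes) Zfp804b was most like Unc5d (0.90), Osbpl3 like Olfm3 (0.87), Luzp2 like Reck (0.84), Kcnh5 like Sgcd (0.84), Col5a2 like Supv3l1 (0.80), Fstl5 like Cfap69 (0.92) and Inpp4b like Stk10 (0.85). The closest to Ablim1 was 4930449E18Rik (0.93), the gene on its opposite strand named earlier. Between the 8 genes r ran from −0.37 for Zfp804b and Luzp2 to 0.64 for Osbpl3 and Inpp4b. The closest profiles are the highest over all genes compared, so the values between members cannot exceed them and are not set against them. By log2 ratio (among 14020 genes) Osbpl3 was most like Magi3 (0.91), Col5a2 like Sema3e (0.90) and Zfp804b like Qrsl1 (0.90). Fstl5 was closest to Ryr3 (0.86), Inpp4b to Lgals8 (0.85), Luzp2 to Septin9 (0.82), Ablim1 to Sgk3 (0.82) and Kcnh5 to Hhip (0.75). The Col5a2 profile holds a ratio far larger than its others, in oligodendrocyte-like nuclei, which weighs on its r. No minimum was set for a member within a class, so the profiles also hold ratios on very few UMIs. Zfp804b in radial glia-like nuclei, for example, had 5 and 0 UMIs in female and 6 and 0 in male nuclei.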

How the data were processed

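The 2 single-nucleus libraries of mouse hippocampus were analysed from UMI count tables. The authors deposited raw counts per gene and barcode made with Cell Ranger 8.0.1 on mm39, per the submitters' processing notes; whether intronic reads were counted and strand used is not given in the sources used here. Nuclei with at least 500 genes and at most 5% mitochondrial UMIs were kept and doublets predicted with Scrublet (scanpy 1.11.5, expected rate 0.1) removed. Clusters (3000 variable genes, 30 components, 15 neighbours, Leiden resolution 1) were made without the 8 genes, sex-linked transcripts and mitochondrial genes. They were named from 22 marker sets where at least 3 markers were raised and the mean log2 fold of the set was at least 0.5. A name also needed that no other set had more markers among the cluster's leading genes. Shallow clusters needed a marker of their own set among those genes. Names rebuilt in this way may differ from the authors'. Counts were summed per class and library. Intervals for ratios are exact binomial, those for levels exact Poisson and those for shares Clopper-Pearson, and cover counting error only. The 2-fold calling was tested on simulated class sums, and the summing of nuclei was not. TMM factors came from edgeR 4.0.16.

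Members, related genes and markers were chosen with earlier results of these data known. The text names all 8 members, Cic, the closest profiles over classes, family genes at least 2-fold apart, and overlapping genes. Female nuclei had at least 2 Xist and no Y-linked UMIs, male nuclei at least 1 Y-linked and no Xist UMI. Free RNA, thinning, doublets, clustering, scaling and filters were varied.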

Additional observations from a re-analysis of the deposited data

Results flagged for a closer look

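Luzp2 in astrocyte-like nuclei moved in different directions in the sexes, with a log2 ratio of −0.26 (−0.32 to −0.20; 4873 and 3807 UMIs) in female and 0.51 (0.45 to 0.56; 5652 and 5816 UMIs) in male nuclei. Fstl5 in CA1-like nuclei did so too, at −0.26 (−0.41 to −0.10) in female and 0.25 (0.13 to 0.37) in male nuclei. Female nuclei come from 1 mouse in each pool, and the difference between the sexes was not tested.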

How the results depend on the processing

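No paired analysis was possible because each group is 1 library, and for the same reason no replicate could be left out. Genes 2-fold apart numbered 263 in the granule class, 133 in CA3 and 280 in CA1. With at least 20 UMIs and no minimum CPM they numbered 913, 561 and 1053, and with no filter 5379, 5253 and 5743. Female CA3-like nuclei gave 253. The granule sign of all 8 genes was kept under each of the 13 alternatives that apply to a gene. Signs that turned were Col5a2 in CA3-like nuclei thinned to 2000 UMIs (0.61), Inpp4b in female CA3-like nuclei (0.057), Zfp804b in CA1-like nuclei with the unnamed clusters closest to CA1 added (−0.45, chosen after seeing the data), and Fstl5 in CA1-like nuclei, at −0.26 in female nuclei, −0.12 with clusters weighted as in the control, −0.072 with genes past 2-fold left out of the clustering as well (chosen after seeing the data), and −0.011 with median-of-ratios and −0.0082 with TMM factors. The median-of-ratios and TMM factors shifted every CA1 ratio alike, by −0.119 and −0.116, which carried the small Fstl5 value across 0. The unnamed clusters added to the CA1 class included cluster 15, where Zfp804b was lower in the library labelled knockout, with values given under other observations. The cause of the turns other than those by scaling was not tested. Microglia-like nuclei hold Inpp4b and could not stand for free RNA of that gene. Free RNA was taken from oligodendrocyte-like nuclei instead, a choice made after seeing the data, which gave −1.26 for the granule class, −0.10 for CA3 and 2.16 for CA1. CA2-like nuclei held 3762498 control UMIs against 53552571 in CA1-like nuclei, which limits what can be read in CA2.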

Other observations

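Some of the clusters that could not be named had large values. In cluster 14, led by Fn1 among others (536 control nuclei and 490 of the library labelled knockout), Luzp2 went from 68.9 to 298 CPM (log2 ratio 2.11), Inpp4b from 35.7 to 179 CPM (2.33) and Ablim1 from 20.1 to 87.1 CPM (2.11), while Zfp804b (−1.04) and Fstl5 (−1.07) were lower. Luzp2 there had the sign it had in granule-like nuclei, and Inpp4b and Ablim1 the sign they had in CA1-like nuclei.

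Zfp804b differed widely in 2 unnamed clusters, chosen after their values were seen. In cluster 29 (89 and 142 nuclei) it went from 75 to 2013 UMIs, or from 58.5 to 798 CPM, a ratio of 3.76 (3.44 to 4.12). These nuclei may be among those of the further CA1 cluster (277 and 483 nuclei), where Zfp804b UMIs went from 195 to 2102. If so, the values are not separate observations. The overlap was not counted. In cluster 15 (374 and 435 nuclei) Zfp804b went from 1003 to 168 UMIs, a ratio of −2.52 (−2.77 to −2.29). Cluster 15 was among the unnamed clusters closest to CA1, whose addition took the CA1 ratio of Zfp804b to −0.45. Osbpl3 in cluster 23 (179 and 349 nuclei), which Esr2 and Prlr help to define, had 10 and 82 UMIs, a ratio of 2.29 (1.40 to 3.47).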
